A study of Mus musculus with 8 samples.

Results

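The genes described here encode proteins of the mitochondrial ribosome. They were taken by symbol, as all genes on the array whose symbol begins with Mrpl or Mrps followed by a number, which gave 76 of the 19505 genes tested, 48 named for the large subunit and 28 for the small subunit. Each had 1 probe set, and none was left out for a low value. They were measured on 8 one-colour Affymetrix arrays of mouse T cells. The 4 hBD-2 arrays came from cells kept for 48 h with human beta-defensin-2, a cationic antimicrobial peptide of epithelia, given in the labels as 60 µL/mL with no mass concentration. The 4 PBS arrays came from cells kept for the same time with phosphate-buffered saline, the vehicle. Cells of both groups were a mixture of CD4 and CD8 T cells from spleens of male wild-type C57BL/6 mice and were stimulated in culture by anti-CD3/anti-CD28 beads. The labels name 4 mice for the 8 arrays without saying which mouse gave which array, so it is not known whether the groups share mice, and the p-values measure the spread between these arrays. All values are log2 RMA values (background-corrected, normalized and summarised over the probes of a gene), with n = 4 arrays a group, and a change is the hBD-2 mean minus the PBS mean. In such bulk samples fewer cells of a type and less RNA per cell cannot be told apart.

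Mitochondria hold a ribosome of their own, which makes the few membrane proteins of the respiratory chain that mitochondrial DNA encodes. Its RNAs come from mitochondrial DNA, but all of its proteins are encoded in the nucleus, made in the cytosol and imported. The small subunit reads the messenger RNA and the large subunit joins the amino acids. T cells build up mitochondria and mitochondrial translation when they are activated. Some members have a counterpart in bacterial ribosomes and others are found only in mitochondria. Symbols do not always follow the structure. In structures of the mammalian mitoribosome the products of Mrps18a and Mrps30 lie in the large subunit, and the product of Mrps36 is now assigned to the oxoglutarate dehydrogenase complex.

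Promoter sequences are shown for the 4 members with the smallest p in the comparison of hBD-2 with PBS, which were lower, and for Mrpl9, the member with the largest change upward. Each is the RefSeq sequence of 300 bases on the gene's strand, 250 before and 50 from the annotated start, in build GRCm38.p6. The windows are chr17:12916042-12916341 (minus strand) for Mrpl18, chr11:94653541-94653840 (plus) for Mrpl27, chr10:95501900-95502199 (minus) for Mrpl42, chr6:92183974-92184273 (minus) for Mrps25 and chr3:94443086-94443385 (plus) for Mrpl9. Capitals mark exact matches on either strand to 5 short motifs, GCGCATGC for NRF1, CCGGAAG for GABPA and other ETS factors, AAGATGGC for YY1, CACGTG for MYC and GGGCGG for SP1. NRF1, GABPA and YY1 are transcription factors known to act on nuclear genes for mitochondrial proteins.
Mrpl18: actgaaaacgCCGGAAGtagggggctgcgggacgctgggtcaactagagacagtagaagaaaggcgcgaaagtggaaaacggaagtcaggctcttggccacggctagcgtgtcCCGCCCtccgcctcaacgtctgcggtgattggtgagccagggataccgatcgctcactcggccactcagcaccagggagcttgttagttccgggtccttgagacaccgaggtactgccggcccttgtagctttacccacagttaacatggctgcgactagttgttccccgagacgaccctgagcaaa
Mrpl27: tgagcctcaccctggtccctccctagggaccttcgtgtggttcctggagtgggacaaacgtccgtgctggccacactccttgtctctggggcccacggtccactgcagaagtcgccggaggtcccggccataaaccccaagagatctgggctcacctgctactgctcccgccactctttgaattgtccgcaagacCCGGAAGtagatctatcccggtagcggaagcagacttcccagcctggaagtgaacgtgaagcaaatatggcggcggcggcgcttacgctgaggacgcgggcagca
Mrpl42: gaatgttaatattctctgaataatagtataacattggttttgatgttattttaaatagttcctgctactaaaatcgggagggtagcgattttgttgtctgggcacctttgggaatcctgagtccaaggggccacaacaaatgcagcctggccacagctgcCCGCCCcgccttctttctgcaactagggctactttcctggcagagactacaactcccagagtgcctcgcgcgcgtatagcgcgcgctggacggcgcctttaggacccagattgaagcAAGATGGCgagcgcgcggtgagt
Mrps25: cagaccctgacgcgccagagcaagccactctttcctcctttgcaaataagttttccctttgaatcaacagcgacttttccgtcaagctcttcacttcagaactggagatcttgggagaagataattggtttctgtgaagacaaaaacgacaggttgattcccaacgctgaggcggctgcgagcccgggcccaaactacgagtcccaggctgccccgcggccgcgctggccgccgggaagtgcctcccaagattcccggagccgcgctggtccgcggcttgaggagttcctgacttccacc
Mrpl9: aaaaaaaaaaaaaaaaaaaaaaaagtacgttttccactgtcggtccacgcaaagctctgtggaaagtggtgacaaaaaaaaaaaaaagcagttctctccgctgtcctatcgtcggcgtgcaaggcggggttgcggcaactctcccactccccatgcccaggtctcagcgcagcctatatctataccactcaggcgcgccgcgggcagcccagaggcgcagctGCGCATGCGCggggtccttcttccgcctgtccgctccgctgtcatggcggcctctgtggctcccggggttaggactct

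Mrpl18 held an ETS match at -240 from the start and an SP1 match at -137, and Mrpl27 an ETS match at -55. Mrpl42 held an SP1 match at -90 and a YY1 match at 27. The window of Mrps25 held none of the 5. That of Mrpl9 held the NRF1 motif on both strands, at -28 and -26, the matches overlapping each other. A match is a string of letters, not a bound site.

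Over the family, 67 of 76 members had a promoter entry, in 73 windows. Mrpl4, Mrpl13, Mrpl15, Mrpl19, Mrpl38, Mrpl54, Mrps28, Mrps34 and Mrps35 were not matched. The ETS motif was in 34.2% of the members' windows, against 8.86% of all 32851 windows of the genome and 11.8% of the 19143 windows of genes tested. The YY1 motif was in 16.4%, against 2.75% and 3.1%, and the NRF1 motif in 8 of the 73 windows, against 2.71% and 3.66%. For SP1 the shares were 52.1%, against 35.7% and 47.9%, and for MYC 9.59%, against 7.15% and 8.11%. These shares count windows, and some members have several. Counted by gene, 25 of 67 members held the ETS motif, 12 YY1, 8 NRF1, 33 SP1 and 5 MYC. Members with an ETS match had a median log2 fold change of -0.17, and those without had one of -0.22. With a YY1 match the median was -0.14, and without it -0.23. With an NRF1 match it was -0.26, over 8 members only, and without it -0.18. With an SP1 match it was -0.23, and without it -0.17. With a MYC match it was -0.26, over 5 members only, and without it -0.19. The 9 members that fell included 4 with an SP1 match, 2 with ETS, 1 with YY1, 1 with MYC and none with NRF1. None of these differences was tested.

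In cells kept with hBD-2, 9 of 76 mitochondrial ribosomal protein genes fell, none rose and 67 did not pass the threshold (limma, Benjamini-Hochberg adjusted p under 0.05 over all genes). That is 11.8% of the members lower, against 3.66% of all genes lower and 0.8% higher. Genes that fell were more frequent at higher signal, with 0.0615% of the 4876 genes of lowest mean value and 8.32% of the 4877 of highest. Of the 9452 genes whose mean lay in the members' range, 5.28 to 9.63, 6.26% fell. The members' median log2 fold change was -0.20, with quartiles of -0.37 and -0.09, and 66 of 76 lay below 0. At an unadjusted limma p under 0.05, 34 of 76 members were lower and 1 higher, against 2499 lower and 1842 higher of all 19505 genes. Of the 9452 genes in the members' range, 2009 were lower and 871 higher at that p. Over all genes the median was 0.02 with 46.1% below 0, and over the genes in the members' range it was -0.05 with 57.6% below 0. Mrpl18 and Mrpl50 were lower by more than 1.5-fold, 2.63% of the members, against 1.8% of all genes and 3.1% of genes in the members' range. The hBD-2 arrays lay wholly below the PBS arrays in 21 members, or 27.6%, against 9.36% of all genes and 15.5% of genes in the members' range. They lay wholly above in 1 member, against 5.51% of all genes.

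**Figure D1:**
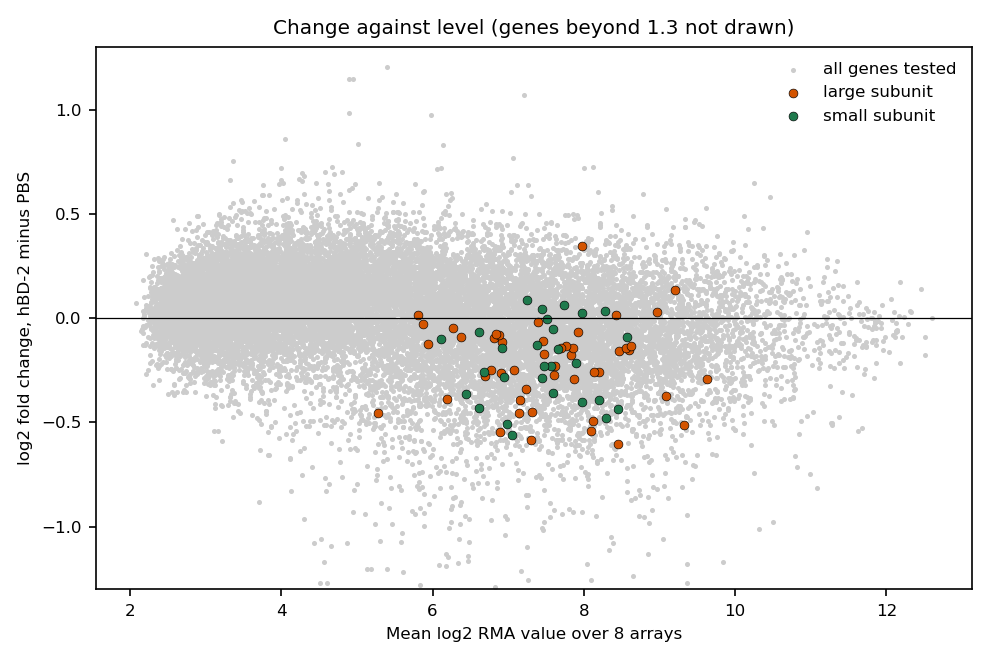
Log2 fold change (hBD-2 minus PBS, vertical) against the mean log2 RMA value over the 8 arrays (horizontal), with all genes tested in grey, large subunit genes in orange and small subunit genes in green. The members have means between 5.28 and 9.63, and 66 of 76 lie below 0. Genes changed by more than 1.3 are not drawn.

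These counts depended on the scaling and on single arrays. With quantile normalization repeated, with cyclic loess or with each array's trend against level removed, 5 members fell and Mrpl9 rose, and the members' median was -0.11 with the first and -0.13 with the others. The share of all genes that fell moved as well, to 2.59%, 2.91% and 2.94%, and the median of all genes was 0.01. The 5 were Mrpl18, Mrpl27, Mrpl42, Mrpl50 and Mrps25 in each case. The count was 2 when hBD-2 array 3 or 4 or PBS array 1, 2 or 4 was omitted, and the 2 were Mrpl18 and Mrpl27 each time. With those omissions 1.43% to 1.74% of all genes fell. Omitting hBD-2 array 1 gave 12 members and 5.51% of all genes, hBD-2 array 2 gave 8 and 2.68%, and PBS array 3 gave 9 and 2.81%. The count was 18 with dim genes left out of the fit, against 10.2% of the genes then tested, and 19 with a variance trend and robust estimation, against 7.97% of all genes. Mrpl9 rose in both.

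Most genes of both subunits had lower means with hBD-2. Of large subunit genes 6 of 48 fell (12.5%), with a median log2 fold change of -0.18. Of small subunit genes 3 of 28 fell (10.7%), with a median of -0.22. Against these shares, 3.66% of all genes and 6.26% of genes in the members' range fell. Below 0 lay 43 large and 23 small subunit genes. With Mrps18a and Mrps30 counted in the large subunit and Mrps36 in neither, the medians were -0.17 and -0.23, and 6 and 3 genes fell.

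The mean of the large subunit genes was 7.52, 7.52, 7.33 and 7.36 on hBD-2 arrays 1 to 4, against 7.72, 7.69, 7.54 and 7.65 on PBS arrays 1 to 4. For the small subunit it was 7.44, 7.44, 7.23 and 7.27 with hBD-2, against 7.61, 7.61, 7.48 and 7.54 with PBS. Replicates 3 and 4 were low among the hBD-2 arrays and replicate 3 among the PBS arrays, and the 2 subunits moved together. The groups did not overlap, but the highest hBD-2 arrays came close to PBS replicate 3. The large minus the small subunit mean was 0.0872 ± 0.00607 with hBD-2 and 0.0933 ± 0.0246 with PBS (SD, n = 4), a difference of -0.01 that is smaller than the spread between the PBS arrays. Counted gene by gene, hBD-2 replicate 3 was the lowest of all 8 arrays for 31 members and hBD-2 replicate 4 for 24, while PBS replicate 3 was the lowest PBS array for 42. PBS replicates 1 and 2 were the highest of the 8 for 23 and 21 members.

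**Figure D2:**
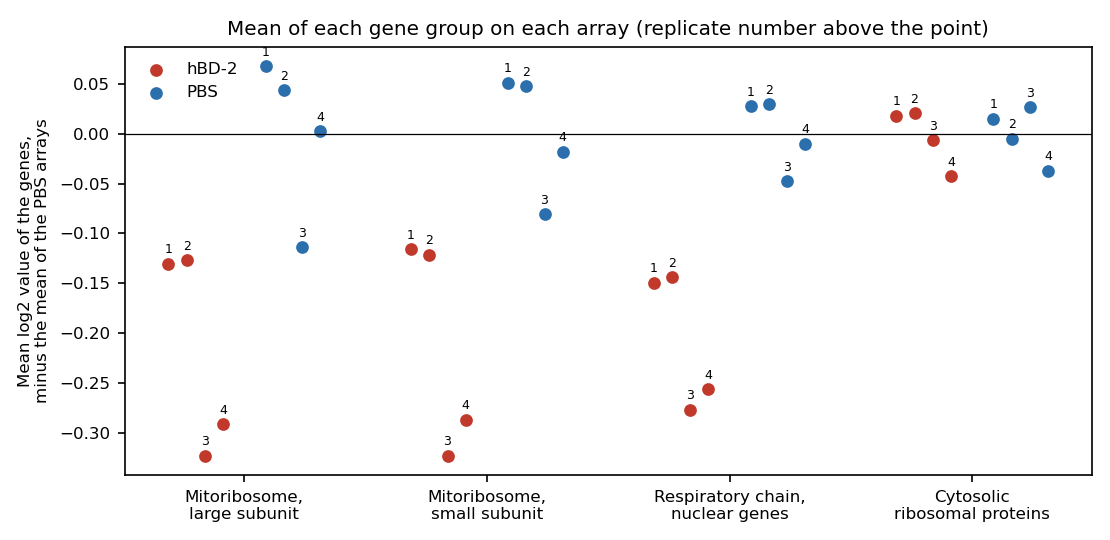
Mean log2 value of each gene group on each array, minus the mean of its 4 PBS arrays (vertical), for hBD-2 arrays (red) and PBS arrays (blue), with the replicate number above each point. Both mitoribosome subunits and the respiratory chain genes are lower on hBD-2 arrays 3 and 4 than on 1 and 2, and cytosolic ribosomal proteins lie near 0 on all arrays.

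**Figure D3:**
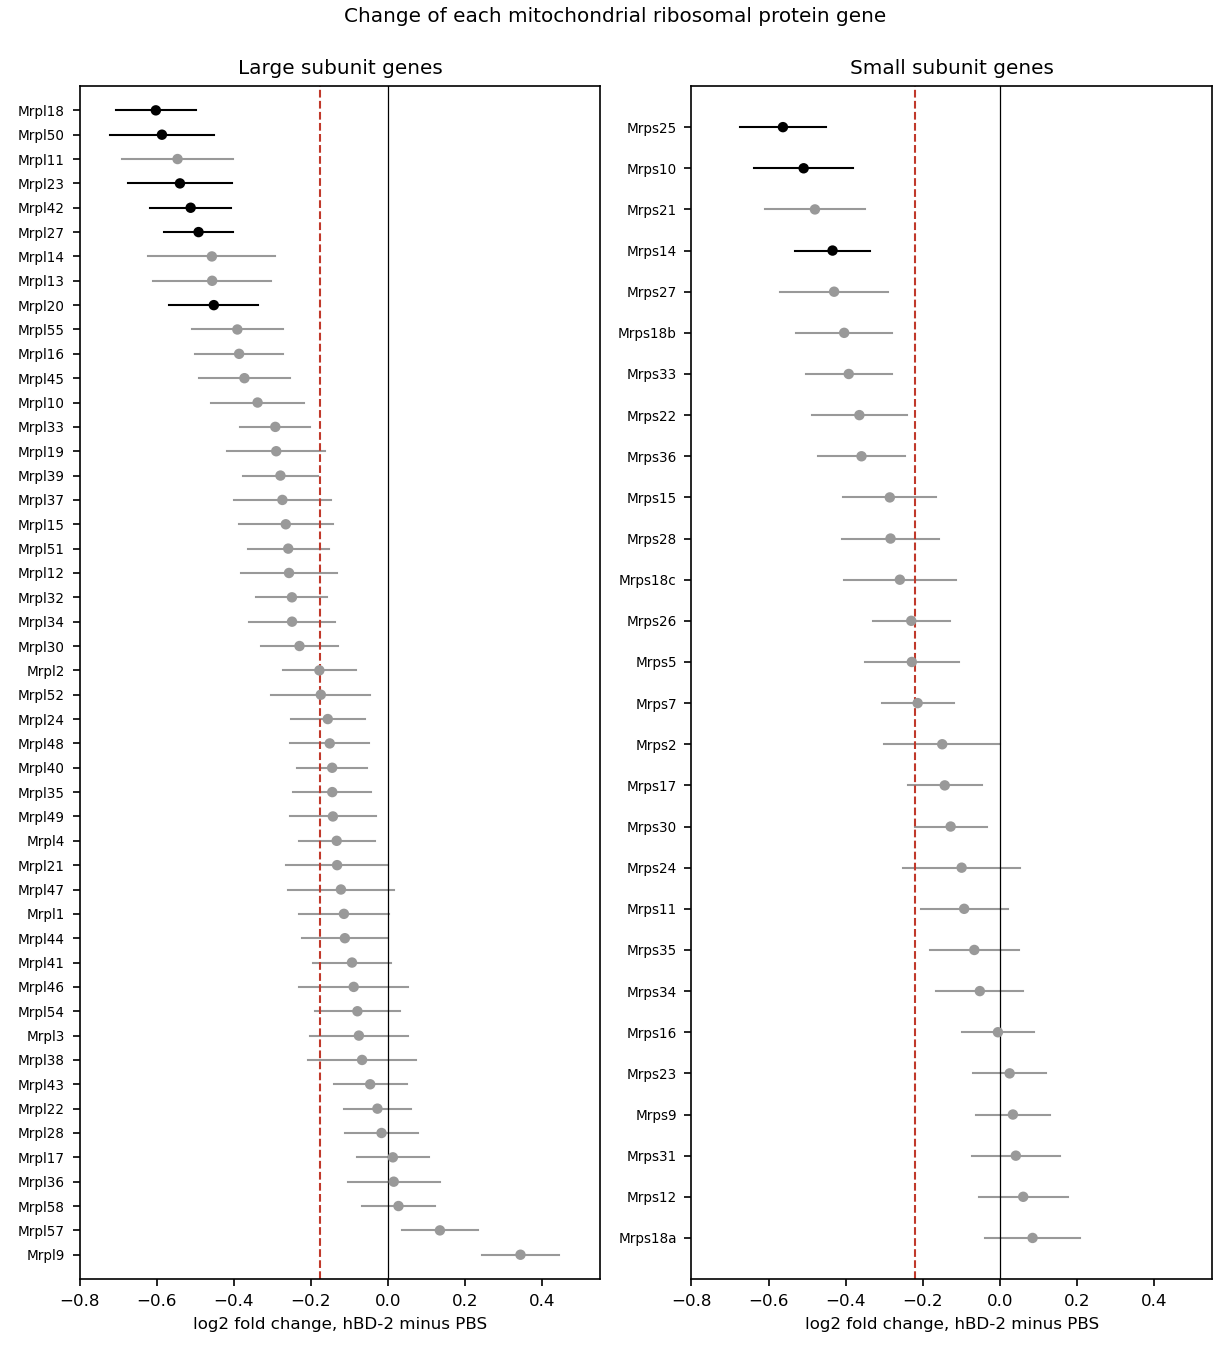
Log2 fold change (hBD-2 minus PBS, horizontal) of each of the 48 large and 28 small subunit genes, with bars of 1 standard error. Black points passed the threshold (6 large and 3 small subunit genes), grey points did not, and dashed red lines are the medians, -0.18 and -0.22.

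Among large subunit genes with a bacterial counterpart, Mrpl18 had the smallest p. Its product belongs to the central protuberance of the large subunit. The values were 8.37, 8.24, 7.95 and 8.07 on hBD-2 arrays 1 to 4, against 8.78, 8.77, 8.72 and 8.77 on PBS arrays 1 to 4. The PBS arrays were nearly alike and the hBD-2 arrays were all lower and more spread. Mrpl18 fell 1.52-fold (a log2 change of -0.60 with an SE of 0.105; adjusted p = 0.00941 by limma).

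Mrpl27, whose bacterial counterpart reaches towards the site of peptide bond formation, was at 8.02, 7.81, 7.86 and 7.80 with hBD-2, against 8.36, 8.32, 8.41 and 8.37 with PBS. All hBD-2 arrays were lower than all PBS arrays, and replicate 1 was the highest of them. The gene fell 1.41-fold (a log2 change of -0.49 with an SE of 0.0885; adjusted p = 0.0108 by limma). Mrpl18 and Mrpl27 kept their calls without any single array (highest limma adjusted p = 0.0351 and 0.0396).

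Mrpl23, a protein of the rim of the exit tunnel through which the new chain leaves, was at 8.06, 8.02, 7.49 and 7.75 with hBD-2, against 8.48, 8.34, 8.19 and 8.48 with PBS. Replicates 3 and 4 were the low hBD-2 arrays. It fell 1.45-fold (a log2 change of -0.54 with an SE of 0.134; adjusted p = 0.0451 by limma). Mrpl20, a protein that binds ribosomal RNA, was at 7.23, 7.10, 6.98 and 7.04 with hBD-2, against 7.74, 7.56, 7.25 and 7.62 with PBS. The groups were parted by a narrow gap, between hBD-2 replicate 1 and PBS replicate 3. It fell 1.37-fold (a log2 change of -0.45 with an SE of 0.115; adjusted p = 0.0492 by limma). Both calls were lost under each of the 3 other scalings (limma adjusted p from 0.0599 to 0.0738) and without hBD-2 replicate 3 or 4 or PBS replicate 1, 2 or 4 (highest 0.121 for Mrpl23 and 0.135 for Mrpl20). Mrpl20 also lost it without hBD-2 replicate 2 (0.0875).

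Of large subunit genes with no bacterial counterpart, Mrpl42 and Mrpl50 fell. Mrpl42 was at 9.27, 9.04, 8.90 and 9.03 with hBD-2, against 9.71, 9.61, 9.42 and 9.55 with PBS. The lowest PBS array, replicate 3, was above the highest hBD-2 array, replicate 1. The fall was 1.43-fold (a log2 change of -0.51 with an SE of 0.106; adjusted p = 0.0219 by limma). Mrpl50 was at 7.29, 7.21, 6.77 and 6.80 with hBD-2, against 7.74, 7.67, 7.57 and 7.44 with PBS. Its hBD-2 arrays formed a higher pair, 1 and 2, and a lower pair, 3 and 4. The fall was 1.5-fold (a log2 change of -0.59 with an SE of 0.134; adjusted p = 0.0345 by limma). Both genes lost the call without hBD-2 replicate 3 or 4 or PBS replicate 1, 2 or 4 (highest limma adjusted p = 0.0739 for Mrpl42 and 0.0992 for Mrpl50), and Mrpl50 also without PBS replicate 3 (0.0603).

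Mrpl9 was the member whose values went furthest the other way. It encodes a large subunit protein with a bacterial counterpart. Its values were 7.98, 8.30, 8.16 and 8.14 with hBD-2, against 7.69, 7.76, 7.93 and 7.84 with PBS. All hBD-2 arrays were above all PBS arrays, with hBD-2 replicate 1 close to PBS replicate 3. The log2 fold change was 0.34 (SE 0.0999) and did not pass (limma adjusted p = 0.0752). It passed under the 3 other scalings, with log2 fold changes of 0.43 to 0.44 (limma adjusted p from 0.0462 to 0.0477), and when hBD-2 array 1 was omitted (0.0422). It also passed with dim genes left out of the fit and with a variance trend. Mrpl57 was next, at 9.27 ± 0.136 with hBD-2 and 9.13 ± 0.0842 with PBS (SD, n = 4; log2 fold change 0.13, limma adjusted p = 0.455), and its groups overlapped.

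**Figure D4:**
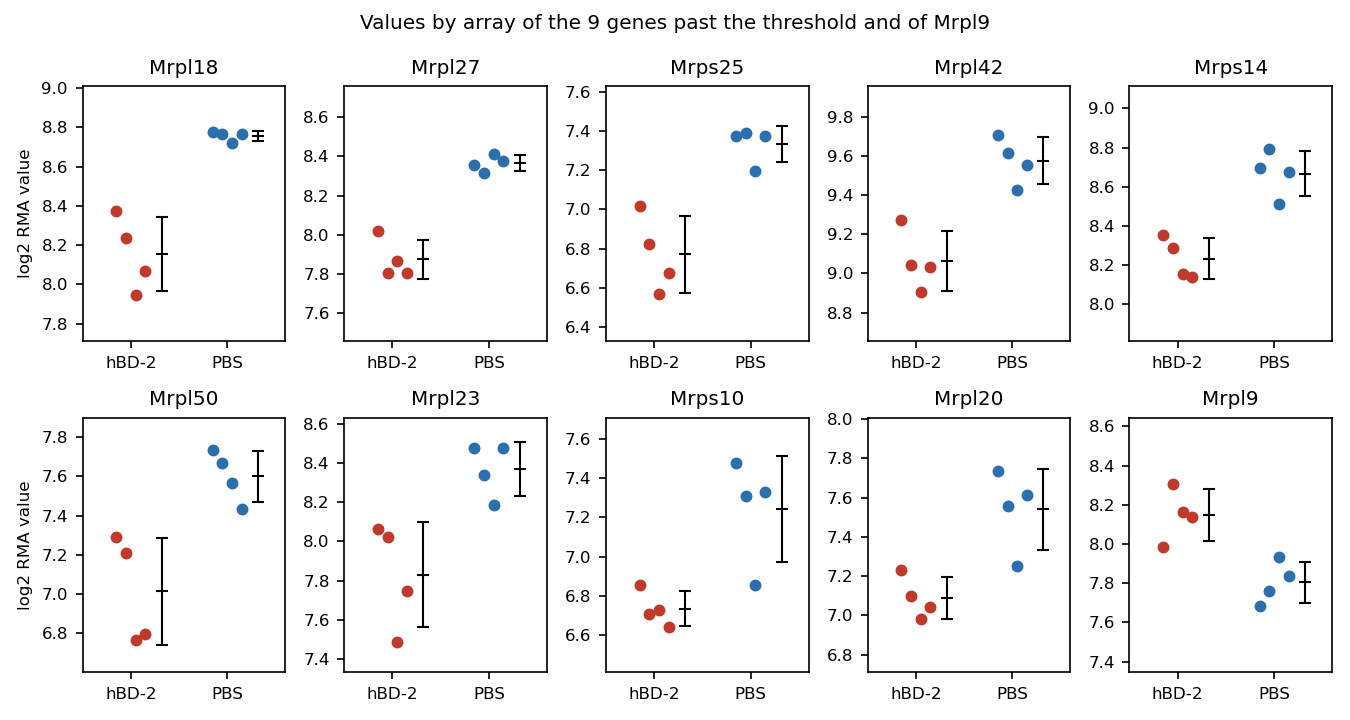
Log2 RMA values (vertical) of the 9 genes past the threshold and of Mrpl9 on each hBD-2 array (red, replicates 1 to 4 from left to right) and each PBS array (blue, likewise), with the mean and SD in black beside each group. All panels span the same number of log2 units, and in each of them the 2 groups are parted.

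Other large subunit genes did not pass. Mrpl11, of the factor-binding region, was the nearest to the threshold, at 6.61 ± 0.213 with hBD-2 and 7.16 ± 0.257 with PBS (SD, n = 4; limma adjusted p = 0.0551). It is outside the naming rule and was picked after its values were seen. It passed with dim genes left out, with a variance trend, with a replicate block and when hBD-2 array 1 or PBS array 3 was omitted (limma adjusted p from 0.00820 to 0.0304). The stalk proteins, which recruit translation factors, are Mrpl10 and Mrpl12. Mrpl10 showed a log2 change of -0.34 (adjusted p = 0.128 by limma) with no overlap of the groups, and Mrpl12 one of -0.26 (0.246) with overlap. At the exit tunnel, Mrpl45, a protein that ties the ribosome to the inner membrane, had one of -0.37 (0.0952; past the threshold at 0.04997 with dim genes left out and at 0.00817 with a variance trend), Mrpl24 one of -0.16 (0.365) and Mrpl22 one of -0.03 (0.885). Mrpl58, a peptidyl-tRNA hydrolase built into the large subunit, was at 0.03 (0.900). The member with the smallest change among large subunit genes was Mrpl17, at 8.44 ± 0.112 with hBD-2 and 8.42 ± 0.0863 with PBS (SD, n = 4), with a 95% interval of the log2 difference from -0.19 to 0.22.

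The probe sets with the highest mean over all arrays were those of Mrpl33, Mrpl42 and Mrpl57, and those with the lowest were Mrpl14, Mrpl36 and Mrpl22. Signals of different probes are not an order of transcript levels. Mrpl33 showed a log2 change of -0.29 (adjusted p = 0.0908 by limma) with no overlap, and passed with dim genes left out (0.0390) and with a variance trend (0.00487). Mrpl14, with the lowest mean, had one of -0.46 with an SE of 0.165 (limma adjusted p = 0.134), and Mrpl36 was at 5.81 ± 0.171 with hBD-2 and 5.80 ± 0.179 with PBS (SD, n = 4).

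Of small subunit genes, Mrps25, Mrps14 and Mrps10 fell. Mrps25, with no bacterial counterpart, was at 7.02, 6.82, 6.57 and 6.67 with hBD-2, against 7.37, 7.39, 7.20 and 7.37 with PBS. PBS replicate 3 stood below the other PBS arrays but above every hBD-2 array. The fall was 1.48-fold (a log2 change of -0.56 with an SE of 0.111; adjusted p = 0.0176 by limma). Mrps14, an RNA-binding protein of the small subunit's head, was at 8.36, 8.29, 8.15 and 8.14 with hBD-2, against 8.70, 8.79, 8.51 and 8.67 with PBS. Here too the lowest PBS array was replicate 3. The fall was 1.35-fold (a log2 change of -0.43 with an SE of 0.0974; adjusted p = 0.0312 by limma).

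Mrps10, also of the head, was at 6.85, 6.71, 6.73 and 6.64 with hBD-2, against 7.48, 7.31, 6.86 and 7.33 with PBS. Its hBD-2 replicate 1 and PBS replicate 3 were almost equal, so the groups were parted by little. The fall was 1.42-fold (a log2 change of -0.51 with an SE of 0.129; adjusted p = 0.0481 by limma). The calls of all 3 were lost without hBD-2 replicate 3 or 4 or PBS replicate 1, 2 or 4 (highest limma adjusted p = 0.0611 for Mrps25, 0.0990 for Mrps14 and 0.130 for Mrps10). Mrps14 and Mrps10 also lost it without hBD-2 replicate 2 (0.0520 and 0.0909) and under the 3 other scalings (limma adjusted p from 0.0512 to 0.0746).

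Next by p were Mrps21, at 8.05 ± 0.222 with hBD-2 and 8.53 ± 0.174 with PBS (SD, n = 4; limma adjusted p = 0.0589), and Mrps33, with a log2 change of -0.39 (0.0715). Neither gene's groups overlapped. Mrps18b showed a log2 change of -0.40 (adjusted p = 0.0903 by limma), with PBS replicate 3 within the hBD-2 range. All 3 passed with dim genes left out (limma adjusted p from 0.0299 to 0.0480) and with a variance trend (0.00358 to 0.0143). Mrps21 also passed with a replicate block (0.0370) and without hBD-2 replicate 2 (0.0441), Mrps33 without hBD-2 replicate 2 (0.0479) and Mrps18b without hBD-2 replicate 1 (0.0346). Mrps12, a protein of the decoding centre, was at 7.77 ± 0.0460 with hBD-2 and 7.71 ± 0.229 with PBS (SD, n = 4). Mrps18a had the largest upward value of the small subunit names, 0.08 (limma adjusted p = 0.735). Mrps16 was nearest to 0, at 7.51 ± 0.125 with hBD-2 and 7.51 ± 0.0683 with PBS (SD, n = 4), with a 95% interval of the log2 difference from -0.21 to 0.20. 

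By origin, 47 members have a bacterial counterpart and 28 do not, Mrps36 being counted in neither. Of the first, 6 of 47 fell and the median log2 fold change was -0.23. Of the second, 3 of 28 fell (10.7%) and the median was -0.14. The share that fell was only slightly higher in the first. Of all genes 3.66% fell, and of genes in the members' range 6.26%. Quartiles of the log2 fold change were -0.39 and -0.11 for the first and -0.30 and -0.07 for the second. Neither the shares nor the changes were tested for a difference by origin.

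Other genes of mitochondrial translation are given from lists chosen by function. Of mitoribosome proteins with other symbols, 4 of 5 were measured, Dap3, Ptcd3, Chchd1 and Gadd45gip1, and none passed in limma (3 lower at an unadjusted p under 0.05), with a median log2 fold change of -0.23. Of 26 genes of ribosome assembly and ribosomal RNA modification 1 fell (3.85%, against 3.66% of all genes), with a median of -0.12. It was Afg3l2, a subunit of the inner membrane protease that matures Mrpl32, at 7.35 ± 0.260 with hBD-2 and 8.27 ± 0.136 with PBS (SD, n = 4; limma adjusted p = 0.00336). Mrpl32 had a log2 fold change of -0.25 and did not pass (0.142).

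Of 16 measured translation factors and related genes 2 fell (12.5%, against 3.66% of all genes), with a median of -0.20. Lrpprc, which stabilises mitochondrial messenger RNAs, was at 6.21 ± 0.172 with hBD-2 and 6.94 ± 0.193 with PBS (SD, n = 4; limma adjusted p = 0.00804). Tufm, the elongation factor that delivers aminoacyl-tRNA, was at 7.25 ± 0.167 with hBD-2 and 7.72 ± 0.129 with PBS (0.0370). Of 18 measured genes of mitochondrial DNA and RNA synthesis 1 fell, and the list median was -0.07. The share of 5.56% stands against 3.66% of all genes and 6.26% of genes in the members' range. The gene that fell was Hsd17b10, a subunit of mitochondrial RNase P, with a log2 change of -0.35 (adjusted p = 0.0399 by limma). The import and matrix chaperone list had a median log2 fold change of -0.20 and a median level of 8.41. Of the 4877 genes of highest mean value 8.32% fell. Of the 19 genes in the list 4 fell (21.1%, against 3.66% of all genes). These were the import pore gene Tomm40 (log2 fold change -0.71), Timm17a of the inner membrane channel (-0.55), the prohibitin gene Phb (-0.52) and the chaperonin gene Hspd1 (-0.66).

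None of 11 measured regulators of nuclear genes for mitochondria passed in limma, 1 was lower at an unadjusted p under 0.05, and their median was -0.08. Myc was at 10.7 ± 0.168 with hBD-2 and 10.9 ± 0.106 with PBS (SD, n = 4; limma adjusted p = 0.251), and Gabpb2, a partner of GABPA, had a log2 fold change of -0.31 (0.152). The 81 nuclear genes taken as respiratory chain subunits, which include some isoforms of other tissues, had 11 that fell and 1 that rose. The falls are 13.6% of the list, against 3.66% of all genes lower and 0.8% higher. The list had a median log2 fold change of -0.24 and a median level of 8.72. Of the 4877 genes of highest mean value 8.32% fell. The 54 cytosolic ribosomal protein genes had none that passed in limma, 1 in each direction with an unadjusted p under 0.05, and a median of -0.004. The hBD-2 arrays lay wholly above in 9 of them, against 5.51% of all genes, and wholly below in 3 (5.56%), against 9.36%. Their mean on an array was 11.2 ± 0.0293 with hBD-2 and 11.2 ± 0.0279 with PBS (SD, n = 4). Their levels ran from 8.82 to 12.5, with a median of 11.4, above the members' range of 5.28 to 9.63. The cytosolic and mitochondrial ribosomal protein genes were therefore not compared at like signal. No test of the difference between these lists was made.

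Pairs of arrays correlated at 0.990 to 0.994 inside a group and at 0.983 to 0.992 across groups. The interquartile range of all values on an array was narrower with hBD-2, 3.53 ± 0.0936, than with PBS, 3.68 ± 0.0549 (SD, n = 4), and narrowest on hBD-2 replicates 3 and 4 (3.45 on each), the arrays on which the members were lowest. Without these 2 arrays none of the 76 members passed in limma. Leaving out the arrays lowest for the members and keeping only 2 hBD-2 arrays both favour fewer calls. No other pair of arrays was left out for comparison. In the fit without hBD-2 replicates 3 and 4, 128 genes of the whole table passed, with 0.574% of all genes lower at the adjusted threshold. The members' median was -0.12, against 0.006 over all genes. At an unadjusted p under 0.05, 17 members were lower and 1 higher. The share of all genes at that unadjusted p is not given for this fit, so these 2 counts have no background beside them. The mean of 11 measured T cell markers was 10.4 ± 0.0408 with hBD-2 and 10.4 ± 0.0454 with PBS (SD, n = 4), and none of them passed in limma (1 higher at an unadjusted p under 0.05). Of 5 mast cell and basophil markers 2 rose, Cpa3 and Fcer1a, against 0.8% of all genes higher. The list mean ran from 4.41 to 5.08 on hBD-2 arrays and from 4.02 to 4.22 on PBS arrays. None of 6 measured B cell markers passed in limma, and none had an unadjusted p under 0.05, with list means from 4.55 to 6.23 on hBD-2 arrays and from 4.49 to 5.56 on PBS arrays, high on replicates 2 and 4 of both groups. Of 8 myeloid markers 1 fell, Itgam (12.5%, against 3.66% of all genes), and 6 lay above 0, with a median of 0.03. Among them Cd14 was higher with no overlap of the groups (log2 change 0.32, adjusted p = 0.0740 by limma), the 1 marker higher at an unadjusted p under 0.05. Of 3 NK and 1 erythroid markers none passed in limma (1 NK marker lower at an unadjusted p under 0.05). The part of these markers in the members' values was not tested.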

How the data were processed

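The authors deposited 1 table of log2 values for 22203 probe sets on 8 arrays. Per the submitters' processing notes, oligo and RMA made them. Versions were not given in the sources used here. RMA pulls dim signals together, so small changes of dim genes are understated. Precision is limited by the number of arrays.

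From the platform annotation, 19572 probe sets had 1 symbol, and 2631 with no symbol or with several are unnamed here. No symbol changed when looked up by gene identifier in GRCm38.p6. For 55 genes with several probe sets the highest mean was kept, which left 19505 genes. None of the members was affected.

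hBD-2 was compared with PBS by limma 3.58.1 in R 4.3.3 (lmFit, eBayes, no covariate), as a two-sided test with p-values adjusted over all genes (Benjamini-Hochberg, threshold 0.05). Gene lists are described by counts and medians. Members and lists were chosen with earlier results of these data known. Origin and structural placement of the members follow general knowledge. Motifs were searched in RefSeq promoters of GRCm38.p6. Alternatives were other scalings, a filter at percentile 40 of level (a log2 value of 4.74), a variance trend with robust estimation, other handling of repeated probe sets, a replicate block and arrays left out. Names follow a rule that takes members past the threshold, the 6 smallest p and 2 largest rises of each subunit, the 3 highest and 3 lowest signals, the smallest change of each subunit, members with an array far from its group and up to 4 members with the smallest p of each other list. Members named for their role at the tunnel, stalk or membrane were picked outside it. Tested on simulated data for this comparison, on 19505 genes with 200 changed downward, the fit recovered 6% of 50 genes lowered 1.25-fold and 64% of those lowered 1.5-fold. For 2-fold the share was 94% and for 3-fold 100%. Of 142 calls, 10 were false.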

Additional observations from a re-analysis of the deposited data

Results flagged for a closer look

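Of 152 groups of 4 arrays checked (76 members in 2 groups), 11 held an array far from the other 3 by Dixon's ratio, or 7.24%, and chance flags about 1 in 20 groups. On hBD-2 arrays, replicate 1 stood low for Mrpl55 (6.80, nearest array 7.01) and high for Mrpl1 (7.14, nearest 6.77). Replicate 3 stood low for Mrpl12 (7.70, nearest 8.10) and Mrpl17 (8.27, nearest 8.48). Replicate 2 stood high for Mrps12 (7.84, nearest 7.75). On PBS arrays, replicate 3 stood low for Mrpl32 (6.77, nearest 6.93), Mrps25 (7.20, nearest 7.37) and Mrps18b (7.95, nearest 8.23). Replicate 1 stood high for Mrpl33 (9.87, nearest 9.75). Replicate 2 stood high for Mrpl30 (7.91, nearest 7.69) and low for Mrpl24 (8.39, nearest 8.58). Of these genes, Mrps25 was past the threshold, and without PBS replicate 3 it fell with a log2 fold change of -0.61.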

How the results depend on the processing

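The members' median was below 0 under every alternative run, between -0.23 and -0.11. Leaving out the genes below percentile 40 of level gave 1541 calls (10.2% of genes tested lower) and 18 falling members (11 large, 7 small), and a variance trend with robust estimation gave 2033 (7.97% lower) and 19 (11 large, 8 small). Each of these 2 settings held the same 9 and also called Mrpl9 higher. With quantile normalization, cyclic loess or the level trend removed, 5 members fell, 4 large and 1 small. The small subunit median was -0.12 and the large minus small median 0.0219 with quantile normalization, against 0.0446 in the reported fit. Without hBD-2 replicates 3 and 4 together there were 128 calls (0.574% of genes lower), 0 falling members, 0 large and 0 small, a small subunit median of -0.0903 and a large minus small median of -0.0309. With Mrps18a and Mrps30 in the large subunit that difference was 0.0630. Leaving out single arrays gave 312 to 1396 calls (1.43% to 5.51% of genes lower), 2 to 12 falling members, 2 to 7 large and 0 to 5 small, medians of -0.23 to -0.15 and a large minus small median of -0.00269 to 0.0282.

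The replicate numbers are shared by the groups, but the labels do not tie them to mice. Same-numbered arrays correlated at 0.181, 0.0585, 0.159 and 0.00482 in their deviations from the group means. hBD-2 replicates 1, 2 and 3 each correlated best with the PBS array of the same number, and hBD-2 replicate 4 with PBS replicate 3 (0.0906). Whether the arrays are pairs is therefore not settled, and the reported fit treats them as unpaired. With a replicate block 857 genes were called (3.58% of all genes lower), and 11 members fell, among them the same 9, with Mrpl11 and Mrps21.

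Of the members recomputed under every setting, which are those named by the rule and Mrpl10, Mrpl11, Mrpl45 and Mrpl58, 7 changed sign, none of them past the threshold in any setting. Mrps16 was at 0.0862 with quantile normalization, 0.0730 with cyclic loess, 0.0777 with the trend removed, 0.0197 without hBD-2 replicates 3 and 4, and between -0.0521 and 0.0341 without single arrays. Mrpl36 was at -4.54e-05 with cyclic loess, -0.00283 with the trend removed and -0.0565 to 0.0765 without single arrays. Without single arrays Mrpl17 ranged from -0.0156 to 0.0682, Mrpl22 from -0.0594 to 0.000579 (0.0205 without hBD-2 replicates 3 and 4), Mrps12 from -0.0104 to 0.165, Mrps18a from -0.00578 to 0.155 and Mrpl58 from -0.0299 to 0.0581 (-0.0574 without hBD-2 replicates 3 and 4). The causes were not tested.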
